A study of Arabidopsis thaliana with 74 samples.

Results

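The epiRIL fathers of 34 Arabidopsis families were compared by the heterosis of their hybrid offspring. The question was whether the small RNAs (sRNAs) of a father differed between families whose hybrids had a larger leaf area than the mean of the parents and families whose hybrids had a smaller one. The first group held 20 fathers, called positive-heterosis fathers below, of families 41, 79, 102, 125, 128, 158, 176, 241, 266, 275, 310, 368, 379, 393, 426, 462, 467, 469, 574 and 579. The second group held 14 negative-heterosis fathers, of families 50, 54, 211, 219, 330, 334, 340, 389, 419, 424, 454, 503, 519 and 539. These were 34 of the 36 epiRIL libraries and of 74 libraries in the series, which also holds 36 epiHybrid libraries and 2 of the mother, msCol. Only the sign of the leaf-area heterosis in the study's phenotype table was used, since the sample labels do not give it. The heterosis interval excluded 0 in 13 of the 20 positive and 12 of the 14 negative families, so the sign of the others was not established. The study had picked the 36 families by leaf area: those furthest above the mean of the parents, those furthest below it and those without a difference.

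An epiRIL is an epigenetic recombinant inbred line. All lines share the Columbia (Col) genome with little sequence variation, and each carries its own mosaic of chromosome stretches that lost DNA methylation in a ddm1-2 founder. DDM1 is a chromatin remodeller that DNA methylation needs in heterochromatin. Each epiRIL was crossed as father to the male-sterile Col line msCol, a carrier of the ms1 mutation, to give 1 epiHybrid family. Each library came from aerial rosettes harvested 27 days after sowing, with the rosettes of the replicates of a line pooled. A father was thus 1 library, and the replicates of every test below were lines, not plants of a line.

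Plant siRNAs guide DNA methylation. RNA polymerase IV and RDR2 make a double-stranded RNA from a silent locus, DCL3 cuts it into siRNAs, and AGO4 carries these to transcripts of polymerase V, where DRM2 methylates the DNA in all sequence contexts. CHH sites, where H is any base but G, carry no symmetric partner strand and need such guidance or chromatin-based methylation to keep their mark. In epiRILs, stretches that lost methylation can lose their siRNAs, can regain both over generations, or can keep a new siRNA state that is passed on.

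Total counts were even between the groups. They ran between 24752117 and 26686802 (median 25891425) in positive-heterosis fathers and between 24515153 and 26777462 (median 25881244) in negative-heterosis fathers, summed over the non-overlapping windows used here. The labels were checked at 412 windows around MS1, where msCol differs from Col. The epiHybrid was nearer to msCol than its epiRIL in 34 of 36 families, and the order was opposite in the other 2, families 12 and 568, which were left out.

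A choice of called windows is shown first, to set windows shared by several fathers beside windows of a single father. The window of smallest p, at CYP71A25, lies in a UTR exon and is described without its letters. The others are given as 200-bp stretches of the TAIR10 plus strand with the cytosines in CHH context on the printed strand in capitals. All letters were taken from the RefSeq copy of the assembly. The first 4 rose in several negative-heterosis fathers and stayed called whichever father was left out.
Before AT5G54585, chr5:22174601-22174800: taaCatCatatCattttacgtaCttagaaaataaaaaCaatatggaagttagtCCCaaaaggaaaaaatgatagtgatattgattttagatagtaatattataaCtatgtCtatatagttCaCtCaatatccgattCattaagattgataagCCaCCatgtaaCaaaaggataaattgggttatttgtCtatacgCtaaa
Before AT5G54585, chr5:22174801-22175000: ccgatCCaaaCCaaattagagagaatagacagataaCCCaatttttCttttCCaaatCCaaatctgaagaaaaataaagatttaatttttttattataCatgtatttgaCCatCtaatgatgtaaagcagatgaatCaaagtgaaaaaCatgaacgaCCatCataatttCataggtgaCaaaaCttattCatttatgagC
Before AT3G27910, chr3:10358601-10358800: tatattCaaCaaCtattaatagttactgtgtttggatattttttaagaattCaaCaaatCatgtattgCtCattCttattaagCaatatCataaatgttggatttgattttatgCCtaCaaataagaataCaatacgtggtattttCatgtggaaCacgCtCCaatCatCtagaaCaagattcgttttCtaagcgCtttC
In AT2G35250, chr2:14847401-14847600: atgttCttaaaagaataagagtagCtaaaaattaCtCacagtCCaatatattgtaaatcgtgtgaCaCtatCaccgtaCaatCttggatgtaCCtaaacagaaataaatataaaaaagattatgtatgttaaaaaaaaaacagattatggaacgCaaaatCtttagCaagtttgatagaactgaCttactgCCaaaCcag
The next had counts in 3 negative-heterosis fathers and in 1 of the 2 msCol libraries.
Across the 5′ end of AT1G27580, chr1:9591001-9591200: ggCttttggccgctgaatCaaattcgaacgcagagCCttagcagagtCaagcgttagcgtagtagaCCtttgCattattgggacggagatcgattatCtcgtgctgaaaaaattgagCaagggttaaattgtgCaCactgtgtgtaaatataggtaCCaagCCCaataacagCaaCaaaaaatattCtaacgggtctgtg
A pseudogene window with 11 other copies had reads in 12 of the 20 positive-heterosis fathers.
In pseudogene AT2G15200, chr2:6603201-6603400: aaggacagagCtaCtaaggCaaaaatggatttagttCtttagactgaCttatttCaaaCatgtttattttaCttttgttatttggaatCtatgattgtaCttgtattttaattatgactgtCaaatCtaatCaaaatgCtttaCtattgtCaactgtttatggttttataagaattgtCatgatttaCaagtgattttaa
The last pair each carried high counts in a single father, the first in father 102 (positive) and the second in father 419 (negative).
After AT4G11100, chr4:6770601-6770800: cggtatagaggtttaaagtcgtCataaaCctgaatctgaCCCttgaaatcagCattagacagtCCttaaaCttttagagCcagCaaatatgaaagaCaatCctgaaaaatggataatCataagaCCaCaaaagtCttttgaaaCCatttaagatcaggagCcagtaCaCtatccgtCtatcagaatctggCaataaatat
Near tRNA gene AT4G11213, chr4:6837001-6837200: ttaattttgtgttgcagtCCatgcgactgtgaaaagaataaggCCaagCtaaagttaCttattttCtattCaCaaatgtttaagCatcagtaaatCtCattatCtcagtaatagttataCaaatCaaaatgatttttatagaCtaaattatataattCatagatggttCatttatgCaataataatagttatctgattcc
These sequences were rich in A and T. Their GC content ran between 26.0% for the pseudogene window and 43.0% for the AT1G27580 window. On both strands together, the pseudogene window held 0 CG, 8 CHG and 44 CHH sites, and the AT1G27580 window held 18 CG, 17 CHG and 49 CHH sites. Over the 104 windows called below, the median GC content was 31%, against 38% over all windows tested.

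Few windows differed between the groups of fathers. Of 173800 windows that averaged 2 or more counts over the fathers, 104 passed an adjusted p of 0.05 in edgeR's quasi-likelihood test (0.0598%), 19 higher in positive-heterosis fathers (0.0109%) and 85 lower (0.0489%). At an unadjusted p below 0.05 there were 7916 windows (4.55%). The median log2 fold change, positive over negative, was -0.01 over all tested windows. Joining called windows of a direction within 5 kb gave 19 loci higher and 67 loci lower in positive-heterosis fathers. The count and its split depended on the tool and the families: limma voom called 0 windows (smallest adjusted p 0.448, 8023 at an unadjusted p below 0.05) and DESeq2 called 47, 22 higher and 25 lower, of which 7 were among the 104. With only the families whose heterosis interval excluded 0, edgeR called 26, 8 higher and 18 lower.

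Most called windows were high in very few fathers. Of the 85 lower windows, 44 reached 10 counts in exactly 1 negative-heterosis father, 20 in 2, 20 in 3 or more and 1 in none, and in 71 of them no positive-heterosis father reached 10 counts. Of the 19 higher windows, 7 reached 10 counts in exactly 1 positive-heterosis father, 4 in 2, 6 in 3 or more and 2 in none, and in 18 of them no negative-heterosis father did. A single library held over 90% of the counts of the higher group in 6 of the 19 higher and 45 of the 85 lower windows. The calls thus described individual lines more often than groups. At windows high in few fathers, a small edgeR p depends on its model of counts. It does not say that the groups differed in many lines.

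**Figure D1:**
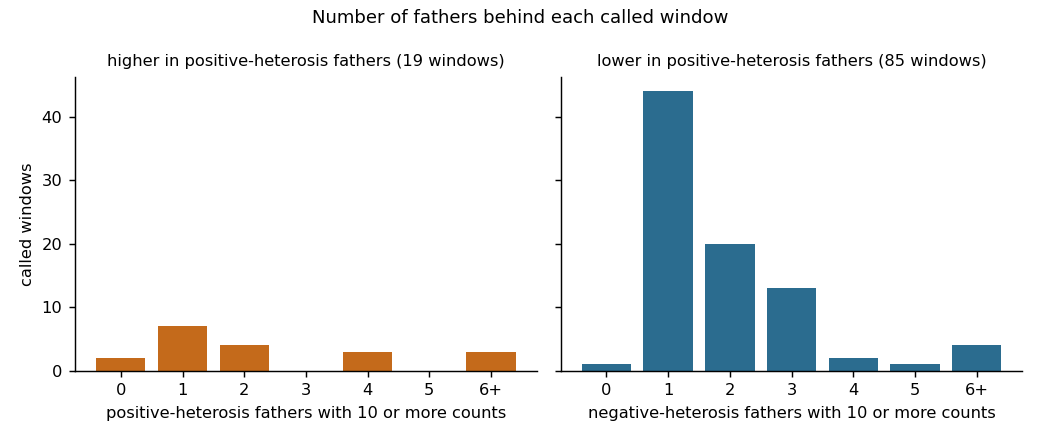
Called windows by the number of fathers that reached 10 counts in the group where the window was high, for windows higher (left) and lower (right) in positive-heterosis fathers. The x axis gives the number of fathers and the y axis the number of windows. In the right panel 44 of 85 windows stand at 1 father.

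Leaving out the father of highest count restates this in part, since he was chosen by the counts that made the call. Without the father of highest count, 94 of the 104 windows were no longer called, 17 of the 19 higher and 77 of the 85 lower. Of these, 9 higher and 48 lower windows then fell under the filter on low counts. Father 50 led 19 of the lower windows, father 424 led 14, father 340 led 13 and father 454 led 8, and 13 of the 14 negative-heterosis fathers led at least 1. Among the higher windows fathers 79 and 102 led 4 each, and 10 of 20 fathers led at least 1. In all 34 fits that left out 1 father, 9 windows at 7 loci stayed called, 1 higher and 8 lower. Loss in 2 or more of these fits was seen for 15 of the 19 higher calls, against 21 of the 85 lower calls. Losses without the father of highest count were similar in both directions.

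Called windows lay mainly on chromosome arms. Within 3 Mb of a centromere lay 3 of the 19 higher and 15 of the 85 lower windows, where 57.8% of all tested windows were found. By annotation of the first gene listed at a window, 9 higher and 46 lower windows were intergenic and 4 and 14 overlapped a UTR exon. A coding exon was overlapped by 2 and 17, and 1 and 4 lay in an intron of that gene. A second gene at a window, such as the tRNA gene AT2G33940 within NUDT22, was not counted. These numbers were not set against all windows tested. No other copy with at least 90% identity over 100 bp was found in the genome for 15 of the higher and 68 of the lower windows. Sharing of reads through shorter matches was not tested. Both msCol libraries were at 0 counts in 7 higher and 31 lower windows.

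The smallest p belonged to a window at the 3′ end of CYP71A25 (AT3G48280, plus strand), a cytochrome P450 gene. It spans chr3:17881201-17881400 and overlaps the 3′ UTR exon by 188 bp. Counts were between 0 and 2 (median 0) in the 20 positive-heterosis fathers and between 0 and 427 (median 1.5) in the 14 negative-heterosis fathers. Father 340 had 427 counts, father 50 had 256 and father 424 had 238, and no other negative-heterosis father passed 3. Both msCol libraries were at 0. The log2 fold change was -7.17 ± 0.84 (edgeR adjusted p = 1.02e-06), and the adjusted p was 1.9e-05 or less whichever father was left out. After ± of an edgeR fold change, here and below, stands its size divided by the square root of the F statistic. That value follows from the test and is not a separate measure of the spread between lines. The signal was thus a property of 3 lines, with the other 11 at 3 counts or fewer.

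A pair of adjoining windows before AT5G54585, a gene for an uncharacterized protein, followed the same form in another set of lines. At chr5:22174801-22175000, which lies 461 bp before the gene's start, counts were between 0 and 2 (median 0) in positive-heterosis fathers and between 0 and 89 (median 0.5) in negative-heterosis fathers. Father 424 had 89 counts, father 330 had 87 and father 503 had 31. The log2 fold change was -4.85 ± 0.70 (edgeR adjusted p = 4.45e-05). At the neighbour chr5:22174601-22174800 the same 3 fathers stood out, with 71 counts in father 330, 69 in father 424 and 21 in father 503, against at most 2 in any positive-heterosis father (edgeR adjusted p = 0.000484). Only father 424 was high both here and at CYP71A25.

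Fathers 54 and 454 shared the windows before AT3G27910, which codes for a kelch-repeat protein. At chr3:10358601-10358800 positive-heterosis fathers had between 0 and 5 counts (median 0) and negative-heterosis fathers between 0 and 448 (median 0), with 448 in father 54 and 86 in father 454. The log2 fold change was -6.38 ± 0.94 (edgeR adjusted p = 7.64e-05). The neighbour chr3:10358801-10359000 had 579 and 110 counts in the same fathers 54 and 454, against at most 9 in positive-heterosis fathers (-5.87 ± 0.88, edgeR adjusted p = 9.66e-05). Without 1 father the adjusted p rose to at most 0.035 and 0.047 for the pair of windows. With the father's own leaf area relative to the mother (sign only) as a covariate, neither window nor the next was called.

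In AT2G35250, annotated as a putative NEP-interacting protein with a DUF239 domain, counts at chr2:14847401-14847600 were between 0 and 4 (median 1) in positive-heterosis fathers and between 0 and 107 (median 0.5) in negative-heterosis fathers. Fathers 50, 54 and 340 had 107, 69 and 28 counts. The log2 fold change was -4.01 ± 0.68 (edgeR adjusted p = 0.000901). The 3 fathers that were high here each led or shared another of the windows above, so the few supporting lines recurred.

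The window across the 5′ end of AT1G27580, a gene of the F-box family with a DUF295 domain, differed from the others in the mother. At chr1:9591001-9591200 counts were between 0 and 1 (median 0) in positive-heterosis fathers and between 0 and 49 (median 0) in negative-heterosis fathers, with 49 in father 330, 47 in father 219 and 19 in father 334 (-4.79 ± 0.83, edgeR adjusted p = 0.00401). The library msCol16 had 198 counts and msCol12 had 3. The pair of msCol libraries thus lay further apart than any pair of fathers.

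The remaining windows that stayed called whichever father was left out were low in every library. In RPT6A, which codes for an ATPase of the proteasome's regulatory particle, counts at chr5:6753401-6753600 were between 0 and 4 (median 2) in positive-heterosis fathers and between 1 and 7 (median 4.5) in negative-heterosis fathers (-1.28 ± 0.25, edgeR adjusted p = 0.0169). In KAK, which codes for a HECT-type ubiquitin ligase that limits trichome branching, chr4:18044601-18044800 had between 2 and 8 counts (median 4.5) in positive-heterosis fathers and between 1 and 4 (median 2) in negative-heterosis fathers (1.14 ± 0.22, edgeR adjusted p = 0.0196). The groups overlapped in both windows, and the values rest on fewer than 10 reads per library.

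**Figure D2:**
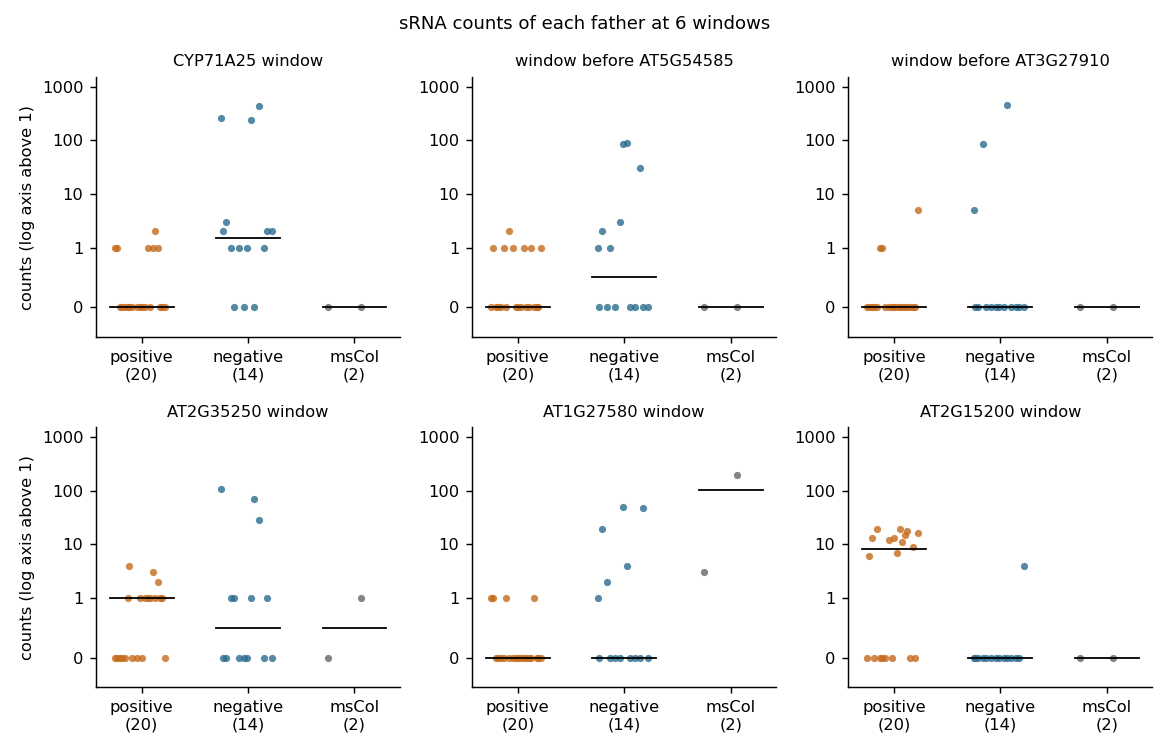
Counts per father at 6 called windows, positive-heterosis fathers left and negative-heterosis fathers next and the msCol libraries last, with each point 1 library and each bar a median, on an axis that is logarithmic above 1. The CYP71A25 panel shows 3 negative-heterosis fathers between 238 and 427 counts and all other fathers at 3 or fewer.

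Among the higher windows, presence against absence over many lines was seen in AT2G15200, an annotated pseudogene on chromosome 2. At chr2:6603201-6603400, 12 of the 20 positive-heterosis fathers had between 6 and 19 counts and the other 8 had 0. Of the negative-heterosis fathers 13 had 0 counts and father 419 had 4. The log2 fold change was 4.29 ± 0.81 (edgeR adjusted p = 0.00963). The call was lost without father 419 (edgeR adjusted p = 0.051), and the window has 11 other copies in the genome, so where its reads came from was uncertain. A window singled out after its values were seen, chr1:14505201-14505400, was instead present in all lines, with between 25 and 113 counts (median 61) in positive-heterosis fathers and between 18 and 48 (median 35.5) in negative-heterosis fathers (0.95 ± 0.20, edgeR adjusted p = 0.0429). The groups overlapped there, the call was lost in 24 of the fits without 1 father, and the sequence has 89 other copies.

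The tRNA gene AT2G33940, which lies in an intron of NUDT22, carried reads in 4 positive-heterosis fathers at chr2:14354001-14354200. Father 266 had 425 counts, father 102 had 135, father 176 had 110 and father 241 had 106, whereas no negative-heterosis father passed 4 (6.67 ± 1.34, edgeR adjusted p = 0.020). This window has 7 other copies. In AT5G60580, which codes for a RING/U-box protein, 4 positive-heterosis fathers had between 10 and 23 counts at chr5:24356401-24356600 (3.18 ± 0.67, edgeR adjusted p = 0.0298), and msCol12 had 46 counts against 0 in msCol16. The tRNA window was lost without father 266 or 503, and the AT5G60580 window in 15 of the fits without 1 father.

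At SCRL5, a gene for a small secreted protein of the SCR-like family, the window chr1:22460201-22460400 had 1478 counts in father 368, 260 in father 41, 21 in father 579 and 15 in father 176, against at most 6 in a negative-heterosis father (5.81 ± 1.22, edgeR adjusted p = 0.0363). At chr1:22301601-22301800, near a long non-coding RNA gene, fathers 462 and 379 had 247 and 127 counts (5.24 ± 1.10, edgeR adjusted p = 0.0314, but -0.31 in DESeq2). At chr2:10443601-10443800, near a gene for an FAD-dependent oxidoreductase, fathers 128 and 579 had 240 and 40 counts (4.62 ± 0.95, edgeR adjusted p = 0.0211). Each of these rested on 2 to 4 of 20 lines, and leaving out 1 father, of either group, ended the call in 15 fits at SCRL5, in 16 at chr1:22301601 and in 2 at chr2:10443601 (without father 50 or 128). In AT1G20100, annotated as a DNA ligase-like protein, counts at chr1:6970801-6971000 were instead low throughout, between 2 and 6 (median 3) in positive-heterosis fathers and between 0 and 3 (median 1) in negative-heterosis fathers (1.39 ± 0.29, edgeR adjusted p = 0.0336, lost in 12 fits).

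The remaining named windows belonged to 1 father each, and each was lost without that father. DESeq2, which replaces single outlying counts, turned the direction of 8 of them, to 0.68 at chr4:2688001, 0.26 at chr4:13961601, 0.51 at chr5:6471401, 0.41 at chr4:6837001, 0.61 at chr2:6709001, 0.47 at chr2:11279201, 0.88 at chr5:15691801 and -0.25 at chr4:6770601. Among the lower windows, chr4:2688001-2688200 ended on the first base of AT4G05240, a ubiquitin-like gene, and had 2133 counts in father 334 and at most 2 in any other (-8.11 ± 1.02, edgeR adjusted p = 1.98e-06). The window chr4:13961601-13961800 at AT4G28088, a gene of a low temperature and salt responsive family, had 1894 counts in father 211 and at most 4 elsewhere (-7.42 ± 0.95, edgeR adjusted p = 2.19e-06). Father 389 had 1377 counts at chr4:9908201-9908400, 174 bp after the zinc-finger gene AT4G17810 (-7.69 ± 0.98, edgeR adjusted p = 2.43e-06). At each of these windows most fathers had 0 or 1 counts and a single one had over 1000.

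Father 50 had 2407 counts in the gene for the GPI-anchored glycoprotein precursor AT5G19240 at chr5:6471401-6471600, against at most 8 in a positive-heterosis father (-7.25 ± 1.02, edgeR adjusted p = 4.45e-05). Father 419 had 2340 counts at chr4:6837001-6837200 (-7.18 ± 0.96, edgeR adjusted p = 1.39e-05), and father 424 had 1719 at the 3′ end of FUT4, a fucosyltransferase gene, at chr2:6709001-6709200 (-6.85 ± 0.94, edgeR adjusted p = 2.17e-05). Father 340 led chr5:8560801-8561000 and chr2:11279201-11279400 with 788 and 369 counts, and father 454 led chr5:15691801-15692000, 542 bp from the germin-like gene GER2, with 523. The windows listed here lay on 3 different chromosomes, and fathers 50, 340, 424 and 454 were also high at windows of chromosome 3 described above.

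The single-father windows that were higher belonged to fathers 102 and 241. Father 102 had 2809 counts at chr4:6770601-6770800, 316 bp after the gelsolin gene AT4G11100 (7.43 ± 1.42, edgeR adjusted p = 0.00837), 944 at chr5:8698801-8699000 near the cytochrome P450 gene CYP71B14 (6.54 ± 1.30, edgeR adjusted p = 0.0147) and 403 at chr1:10173401-10173600 after the cysteine proteinase gene AT1G29110 (5.01 ± 1.04, edgeR adjusted p = 0.0246). Father 241 had 1087 at chr5:24405801-24406000 (6.19 ± 1.21, edgeR adjusted p = 0.0113). The fitted fold changes of windows with 0 counts in most libraries depend on the prior count and are not bounds.

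Windows with reads in a single father were counted in both groups in the same way, a measure added after the calls had been seen. A private window had at least 50 normalised counts in 1 father and at most 5 in each of the other 33 and in msCol. Positive-heterosis fathers had between 0 and 10 of them (median 2.5, mean 3.1 ± 2.40 SD, n = 20), 62 in all. Negative-heterosis fathers had between 0 and 10 (median 3.5, mean 3.71 ± 3.12 SD, n = 14), 52 in all. The difference of -0.614 windows per father did not pass a two-sided permutation test (p = 0.532, 95% interval -2.56 to 1.33). At least 1 private window was found in 32 of the 34 fathers.

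The share of private windows that was called was 4 of 62 in positive-heterosis fathers and 29 of 52 in negative-heterosis fathers. Since a private window is high in 1 father by definition, its direction between the groups was fixed by the choice and was not tested. The groups hold 20 and 14 fathers, and 1 high library makes up a larger part of the mean of 14 than of 20. The 19 higher and 85 lower calls thus stood beside 62 and 52 private windows, and what part group size had in the split was not tested.

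**Figure D3:**
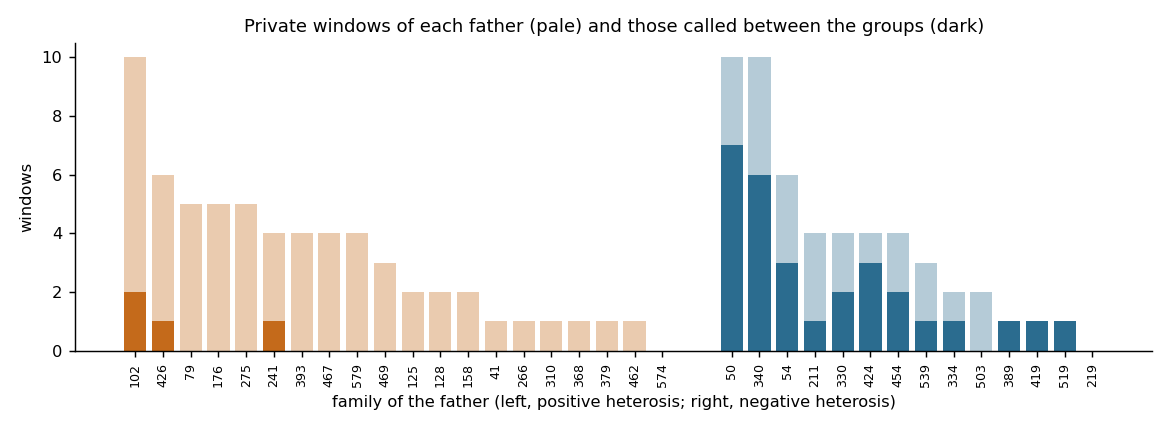
Number of private windows in each father (pale bars) and of those called between the groups (dark bars), by family, positive-heterosis fathers left and negative-heterosis fathers right. Both groups span 0 to 10 windows, with medians of 2.5 and 3.5.

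The epiHybrids of the same families gave a second set of libraries, not independent of the families but not used in the comparison of fathers. Of the 104 windows, 88 had the same direction in the epiHybrids, where 61.7% of all windows tested in fathers had it. That was 13 of the 19 higher windows, where 48.2% of all windows were higher in epiHybrids, and 75 of the 85 lower, where 51.8% were lower. Both fits called 15 windows, 2 higher and 13 lower. Of the 175435 windows tested in epiHybrids 0.384% were called, 0.0741% higher and 0.31% lower, and 9.87% stood at an unadjusted p below 0.05, as did 7 of the 19 and 36 of the 85 in their fathers' direction. At CYP71A25 the epiHybrids of families 424, 50 and 340 had 246, 233 and 60 counts, against at most 6 in an epiHybrid of a positive-heterosis family (-5.14, edgeR adjusted p = 0.00017). At chr5:22174801-22175000 the epiHybrids of families 330, 424 and 503 had 59, 54 and 19 counts (edgeR adjusted p = 0.00201). The same families were high in fathers and in hybrids at both loci.

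At other windows the epiHybrid had fewer counts than the father by whom the window stood out. At chr3:10358601-10358800 the epiHybrids of families 54 and 454 had 15 and 6 counts, against 448 and 86 in their fathers. At chr4:6770601-6770800 the epiHybrid of family 102 had 19 counts against 2809 in its father. At FUT4 the epiHybrid of family 424 kept 720 counts against 1719 in its father, a window that was also called in epiHybrids (edgeR adjusted p = 0.000149). The share of a father's counts found in his epiHybrid thus ran from nearly none to a large part.

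In number, 66 of the lower windows had at least 100 counts in their leading father, and his own epiHybrid had at least 10 counts in 45 of them and 0 to 3 in 12, with a median of 5.79% of the father's counts. Of the 14 higher windows with such a father, the own epiHybrid had at least 10 counts in 8 and 0 to 3 in 5, with a median of 1.49%. Both the windows and the leading father were chosen by high counts in fathers. Lower counts in the epiHybrid, which was not chosen so, were in part fixed by that choice, and these medians do not measure inheritance. At chr5:24405801-24406000 the epiHybrid of family 241 had 1 count and that of family 79 had 1033, so the high hybrid belonged to another family than the high father. At the tRNA gene AT2G33940 the epiHybrids of families 368, 330 and 454 had 344, 219 and 53 counts, of which none had a high father.

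At AT1G27580 the epiHybrids did not follow the fathers. Counts of at least 10 were found in 6 epiHybrids of positive-heterosis families, up to 212, and in 7 of negative-heterosis families, up to 254 (log2 fold change -0.29, edgeR adjusted p = 0.962). At the pseudogene AT2G15200 the log2 fold change in epiHybrids was -0.13, and at KAK and RPT6A it was -0.08 and -0.31. None of these windows was called in the epiHybrids.

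**Figure D4:**
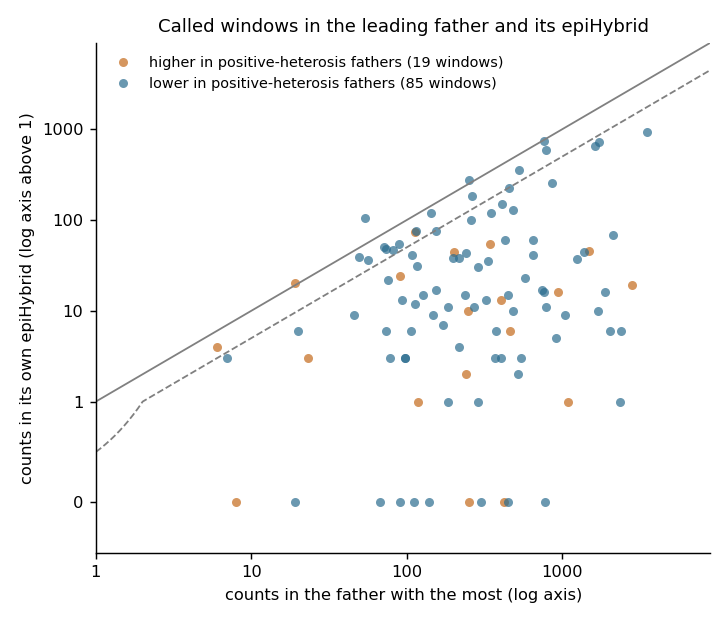
Counts of the leading father against counts of his own epiHybrid at called windows, on log axes, with 1 point per window, coloured by direction. The solid line marks equal counts and the dashed line 0.5 of the father's. The epiHybrids lie mostly below their fathers, at medians of 1.49% and 5.79% of the father's counts among fathers of 100 counts or more. Windows and leading fathers were chosen by high counts in fathers, which by itself favours lower counts in epiHybrids.

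Summed over annotated genes, 19 of 23303 genes were called (0.0815%), 2 higher (0.00858%) and 17 lower (0.073%) in positive-heterosis fathers, and 1103 stood at an unadjusted p below 0.05 (4.73%). A called window overlapped 17 of the 19. A gene's sum took the full count of each window that overlapped it, also of windows mostly outside the gene. In the windows of AT4G28088 father 211 had 1909 counts, and in those of AT4G05240 father 334 had 2133. Of these, 1894 and 2133 counts were in the called windows named above, which overlapped the genes by only 11 and 1 bp. Father 50 had 504 counts over AT2G28625 and 925 over NF-YC5 (AT5G50490), which codes for a subunit of a CCAAT-binding transcription factor. The called window at NF-YC5 overlapped it by 28 bp. For CYP71A25 the highest father had 433 counts, against at most 8 in a positive-heterosis father (-4.31 ± 0.66, edgeR adjusted p = 0.000716). It was the only one of the 19 genes that stayed called whichever father was left out. Higher in positive-heterosis fathers were AT2G27535, a gene of the ribosomal protein L10A family with 225 counts in father 462 (4.72 ± 0.94, edgeR adjusted p = 0.0110), and the tRNA gene AT2G33940.

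Annotated microRNA genes held 1 called window, lower, beside MIR8171, among 1367 windows at 312 genes, where 0.0598% of all windows were called. At an unadjusted p below 0.05 stood 45 higher and 21 lower of these windows (4.83%), against 3452 higher and 4464 lower of all (4.55%). Their median log2 fold change was 0.01. Over the MIR8171 gene itself medians were 190 counts in positive-heterosis fathers and 171.5 in negative-heterosis fathers (0.37 ± 0.16), which did not pass the adjusted threshold. None of 11 conserved families was called. MIR398b, whose product targets copper superoxide dismutase transcripts, had a median of 936800 counts in positive-heterosis fathers and 867900 in negative-heterosis fathers (0.20 ± 0.21). MIR168a, whose product targets AGO1, had medians of 212200 and 191400 counts (0.18 ± 0.10), and MIR156b, which delays the change from juvenile to adult leaves, had 11090 and 10290 (0.07 ± 0.12).

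Genes for trans-acting siRNAs, whose transcripts are cut under the guidance of a microRNA and then diced in register, had 0 of 50 windows called and 1 in each direction at an unadjusted p below 0.05 (4%, against 4.55% of all windows). With 0.0598% of all windows called, a count of 0 in this or the next 3 lists does not set them apart. TAS1A had medians of 218100 counts in positive-heterosis fathers and 219100 in negative-heterosis fathers (-0.07 ± 0.10), and TAS3, which limits auxin response factors, had 31170 and 31270 (0.05 ± 0.09). These abundant sRNA genes differed by less than the spread among fathers of a group.

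Genes of the silencing machinery had 0 of 142 windows called, with 3 higher and 6 lower at an unadjusted p below 0.05 (6.34%, against 4.55% of all windows). Windows of this and the next lists lay at or near few genes, here 28, so neighbours were not separate cases. Summed over genes, 2 higher and 2 lower of 36 tested stood at that level, against 513 and 590 of all 23303. Over the gene, DCL3 had between 13 and 271 counts (median 21.5) in positive-heterosis fathers and between 11 and 150 (median 25.0) in negative-heterosis fathers (0.98 ± 0.46). The medians ran against this fold change, which did not pass the adjusted threshold. Genes known to be controlled by repeats or methylation had 0 of 148 windows called, with 9 higher and 3 lower at that level (8.11%, against 4.55% of all windows). These windows lay at or near 14 genes, and 2 higher and 0 lower of 13 genes tested stood at that level. SUP, a floral gene with silenced epialleles, reached 459 counts in 1 positive-heterosis father against at most 7 in a negative-heterosis father (2.77 ± 0.86), which did not pass the adjusted threshold, and FWA, an imprinted gene silenced through its promoter repeats, had medians of 1230 and 1232 counts (0.08 ± 0.08). Candidate genes named by the study, chosen partly on these samples, had 0 of 194 windows called, with 14 higher and 5 lower at that level (9.79%, against 4.55% of all windows). These windows lay at or near 30 genes, and 1 higher and 1 lower of 34 genes tested stood at that level. At CHUP1, which anchors chloroplasts, medians were 88.0 and 92.0 counts (-0.06 ± 0.08).

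In bins of 100 kb no difference passed the test. None of 1193 bins of 100 kb was called (0.0%), 66 stood at an unadjusted p below 0.05 (5.53%), and the smallest edgeR adjusted p was 0.765. The bins of smallest p were chr3:9900001-10000000 among the higher ones (0.16 ± 0.05) and chr3:12800001-12900000 among the lower (-0.20 ± 0.07). In bins of 10 kb, 2 of 8622 were called (0.0232%). One held CYP71A25 and its neighbours (chr3:17880001-17890000, -2.80 ± 0.52, edgeR adjusted p = 0.0479), with 1368 counts in father 340 and 1085 in father 424. The other, chr1:20600001-20610000, had 1146 counts in father 539 and 285 in father 54 (-3.29 ± 0.64).

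The level of each chromosome part, as log2 CPM (counts scaled to equal library size) over the pericentromere within 3 Mb of the centromere or over the arms, differed by between -0.03 and 0.07 across the 10 parts. On the chromosome 4 arms positive-heterosis fathers averaged 15.36 ± 0.12 and negative-heterosis fathers 15.29 ± 0.15 (SD, n = 20 and 14, permutation p = 0.161, adjusted over 10 parts 0.805). In the pericentromere of chromosome 1 they averaged 15.68 ± 0.10 and 15.63 ± 0.07 (permutation p = 0.140, adjusted 0.805). The chromosome 5 pericentromere had the widest spread, at 15.85 ± 0.48 in positive-heterosis fathers and 15.86 ± 0.52 in negative-heterosis fathers, with a 95% interval of the difference of -0.35 to 0.33. Differences smaller than such intervals were not detectable with 20 and 14 lines.

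The distance of the fathers from the mother did not differ between the groups beyond the spread among lines. Levels were taken as CPM plus 0.5 at windows that averaged 5 or more counts. The median absolute log2 difference from msCol over windows was 0.354 ± 0.052 in positive-heterosis fathers and 0.359 ± 0.041 in negative-heterosis fathers (permutation p = 0.789, 95% interval of the difference -0.04 to 0.03). Windows more than 4 times below the msCol level made up 1.61 ± 0.95% in positive-heterosis fathers and 1.77 ± 0.67% in negative-heterosis fathers (permutation p = 0.597). Windows more than 4 times above it made up 1.17 ± 0.49% and 1.17 ± 0.27% (permutation p = 0.983). With 1 CPM added in place of 0.5, the shares below the msCol level were 0.75 ± 0.44% and 0.79 ± 0.31%. The shares thus depend on the added value, and losses from a low msCol level are missed. The share of windows past these limits varied more within each group than between them.

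**Figure D5:**
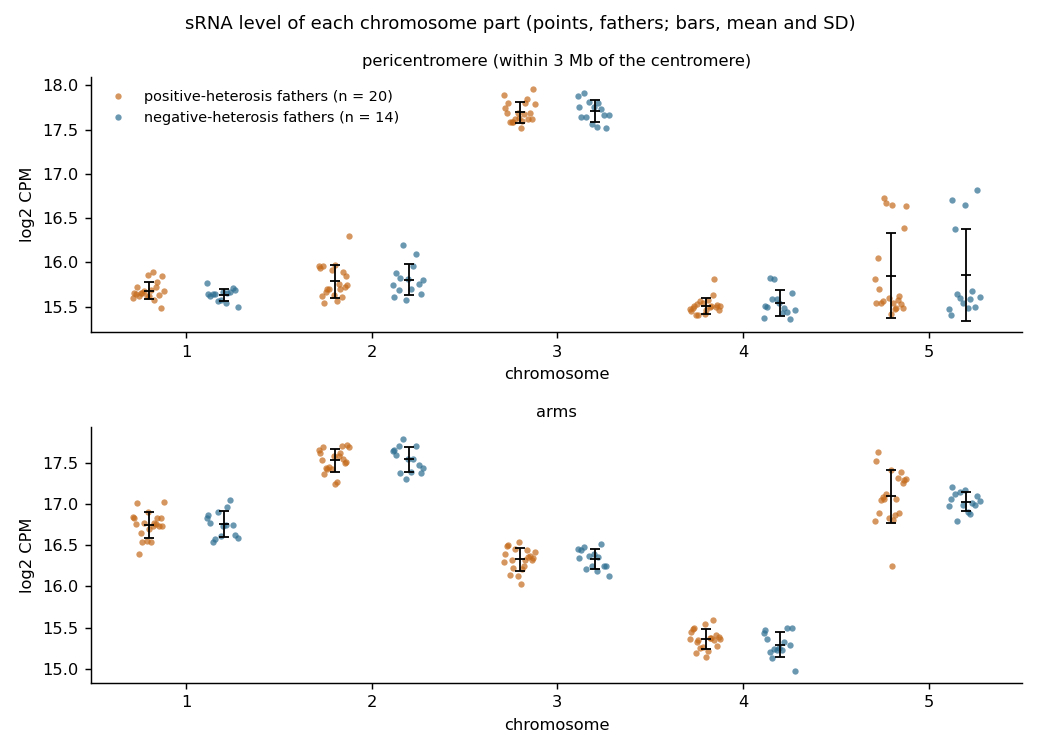
Level of each chromosome part per father, in log2 CPM, positive-heterosis fathers left and negative-heterosis fathers right for each part, with the mean and SD as bars. The groups overlap in all 10 parts, and the chromosome 5 pericentromere spans 15.4 to 16.8.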

How the data were processed

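The sRNA libraries were sequenced by the authors, aligned to TAIR10 with ShortStack and counted in 200-bp regions with 50-bp steps, in a deposited table for each cytosine context. The deposited values were raw counts of reads of all lengths, without normalisation; ShortStack was run with its default parameters, reads with several matches included, and its version is not given in the sources used here. CHH windows that did not overlap and averaged 2 or more counts were kept. Groups followed the sign of leaf-area heterosis in the study's phenotype table and did not come from the sample labels. Windows, bins of 100 kb (mean of at least 50) and genes (mean of at least 5) were fitted with edgeR 4.0.16 in R 4.3.3 (TMM, quasi-likelihood F test, Benjamini-Hochberg at 0.05). DESeq2 1.42.0 and limma 3.58.1 served as alternatives. Single values per father were compared by two-sided permutation tests of 100000 resamples. Joining called windows within 5 kb gave loci. The 12 loci of smallest p in each direction were named, with 5 genes in each direction, and the windows that stayed called in every fit without 1 father were added after the calls had been seen. Copies were found with blastn 2.17.0, and annotation and sequence came from RefSeq TAIR10.1, whose chromosome lengths equal those in the tables. The edgeR fit was tested on simulated counts with the same spread setting at every window, where changed windows shifted in a whole group. Windows high in very few fathers, as most called ones were, were not simulated. Members and gene lists were chosen with earlier results of these data known.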

Additional observations from a re-analysis of the deposited data

How the results depend on the processing

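The number of called windows was 104 and stayed within 1.5 times of it under other size factors, filters and window phases, and with families 12 and 568 kept or 454 or 158 left out. It was 25 of 84766 CG windows tested and 17 of 90056 CHG windows tested, where the main fit tested 173800 CHH windows. In CHH windows it was 26 with only families whose heterosis interval excluded 0 and 32 with the father's leaf area as a covariate. DESeq2 called 47 and limma voom 0, with 8023 windows at an unadjusted p below 0.05 in limma voom. DESeq2 without outlier replacement, chosen after seeing the data, called 60, of which 36 were among the 104 of edgeR. With replacement 7 were shared, and 78 of the 104 had no adjusted p. The replacement of single high counts turned the direction of 9 named windows, to a log2 fold change of -0.31 at chr1:22301601, 0.61 at chr2:6709001, 0.47 at chr2:11279201, 0.68 at chr4:2688001, -0.25 at chr4:6770601, 0.41 at chr4:6837001, 0.26 at chr4:13961601, 0.51 at chr5:6471401 and 0.88 at chr5:15691801. Leaving out each father in turn, also chosen after seeing the data, gave between 75 and 124 called windows and between 10 and 22 called genes. Bins of 10 kb gave 2 calls where bins of 100 kb gave 0, and 9 genes were called with only the families whose interval excluded 0. The levels of chromosome parts and the distances to msCol passed the threshold under none of their alternatives. No paired analysis was possible because the 2 groups of fathers share no family number. With 1 library per line, differences carried by few lines could not be told from properties of those lines, and most called windows held few reads outside them.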

Other observations

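The pericentromere of chromosome 5, the part of widest spread, was searched for windows of large differences among fathers. Other parts were not searched in this way. At 46 windows there the highest father passed 10000 counts while the median father stayed below 1000. Only those of highest variance are described. At chr5:11324601-11324800, in the pseudogene AT5G29975 with 12 other places of like sequence, 8 of 20 positive-heterosis fathers and 5 of 14 negative-heterosis fathers had between 11196 and 94916 counts, and the other fathers had between 314 and 7720. The log2 fold change was -0.09 ± 0.92 (edgeR unadjusted p = 0.927). The epiHybrids of the high fathers had between 2926 and 46825 counts and those of the other fathers between 217 and 2621, and the msCol libraries had 764 and 315. At chr5:11689601-11689800 (AT5G31719, 13 other places of like sequence), 6 of 20 and 4 of 14 fathers had between 16812 and 63978 counts, against 160 to 7849 in the others. At chr5:12143401-12143600 (AT5G32511, 14 other places) the same 6 of 20 and 4 of 14 fathers had between 19345 and 51920 counts, against 243 to 6416. All of them were also high at the first window, so these windows were not separate cases. At the windows described, high fathers and low fathers were thus both present in each heterosis group.

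Privately missing windows, those at which 1 father alone lacked reads that the others had, numbered between 0 and 77 in positive-heterosis fathers and between 0 and 25 in negative-heterosis fathers. Father 469 had 77 and father 79 had 51. The difference in means of 3.59 windows did not pass a two-sided permutation test (p = 0.56).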
